A study of Caenorhabditis elegans with 4 samples.

Results

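The HSP70 family of Caenorhabditis elegans, a free-living nematode, was followed across the cytosol, the endoplasmic reticulum (ER) and mitochondria after exposure of whole worms to nitric oxide (NO). The members were 9 genes chosen by name out of the 16562 loci of the authors' deposited table: the cytosolic genes F44E5.4, F44E5.5, hsp-70, hsp-1 and hsp-110, the ER genes hsp-3, hsp-4 and stc-1, and the mitochondrial gene hsp-6. Each had its own row, joined with no other gene. The gene hsp-110 was listed under its sequence name, C30C11.4, which the RefSeq gene table pairs with that symbol. The samples were 2 control and 2 NO-labelled RNA samples of wild-type (WT) worms of stage L4, the last larval stage, raised at 20 °C on plates of the bacterium E. coli OP50. The NO donor was MAHMA NONOate at 1 mM, a compound that releases NO in solution, with 4 h of recovery at 20 °C before RNA was taken. The treatment text is the same for both groups, so the labels do not say how control worms were handled, and NO cannot be told apart from the donor compound or from handling. The series was designed to set the transcripts of treated worms beside those of untreated worms.

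HSP70 proteins are ATP-driven chaperones that bind exposed stretches of unfolded proteins and let them go again to fold, be transported or be degraded. J-domain proteins deliver clients and trigger ATP hydrolysis, and nucleotide exchange factors, among them the HSP110 class and BAG-domain proteins, reset the cycle. In the worm, heat shock factor HSF-1 drives the inducible cytosolic genes, while hsp-4 is the usual reporter of unfolded protein stress in the ER and hsp-6 that of mitochondria.

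For each locus the table gave 1 level per condition, read as FPKM (fragments scaled by transcript length and library size), with both samples of a condition already combined. Values of single samples were not analysed here, so neither the spread between samples nor the depth of a library is known. Every standard error (SE) and 95% interval below was computed from the deposited log2 fold and test statistic. The labels do not state separate cultures for the samples of a group, and p-values may therefore reflect technical spread only. A call below is an adjusted p under 0.05 in the deposited table, and the largest unadjusted p among the called loci was 0.000179. All 15 tissue and stage markers examined had levels above 0 in both conditions. None of these 15 was called in the authors' deposited test, where 0.399% of all loci were called. By unadjusted p 2 were under 0.05, both lower (0.338% of all loci). They were the yolk protein genes vit-3 and vit-4. Of the 15 log2 ratios after adding 1 FPKM, 6 were above 0 and 9 below. The highest was that of the muscle myosin gene myo-3, with deposited levels of 21.4 and 28.2 FPKM, and the epidermal collagen gene dpy-7, in a row joined with glb-16, had 0.691 and 1.17 FPKM. The 5 yolk genes examined summed to 11201 FPKM in control and 8000.3 FPKM in NO in the deposited table. The collagen gene col-19, known for its adult expression, had deposited levels of 2294 and 1808 FPKM, while 30 major sperm protein loci summed to 12735 and 12511 FPKM. The part of these stage genes in the results on HSP70 genes was not tested. Whether worms had passed stage L4 when RNA was taken, and whether stage differed between the groups, was not tested either.

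The inducible cytosolic HSP70 genes F44E5.4 and F44E5.5 rose by similar folds, and they were the 2 of 9 members called. Over all deposited loci, 0.399% were called, 0.386% as higher and 0.0121% as lower, and 0 members were called as lower. Both genes were also called when the p-values were adjusted again over loci averaging at least 1 FPKM. There 0.49% of loci were called as higher. They were called over loci averaging at least 10 FPKM as well, where 0.782% of loci were called as higher. Both genes reach a mean of 10 FPKM only through their NO levels, so this last call is no separate support. F44E5.4 stood at 2.35 FPKM in control and 24.9 FPKM in NO in the deposited table. The authors' fold for it was 10.6, or 3.41 on the log2 scale, with an SE of 0.53 and an adjusted p = 2.31e-07. F44E5.5 stood at 2.50 FPKM in control and 24.3 FPKM in NO in the deposited table. The authors' fold for this gene was 9.72, or 3.28 on the log2 scale, with an SE of 0.52 and an adjusted p = 6.28e-07. Both genes thus went from a level near the bottom of the family to one still below every member outside the inducible cytosolic genes. The 95% interval of the fold ran from 5.20 to 21.7 for F44E5.4 and from 4.78 to 19.8 for F44E5.5. Among all 15621 loci above 0 in both conditions, 50 had a deposited fold as high as that of F44E5.4, itself included, which is 0.320% of them. Among the 2392 loci whose mean level lay within a factor of 1.5 of its own, 5 did, again counting F44E5.4 itself. The mean level of F44E5.4 is set mostly by its NO level. These loci are therefore not matched to its control level, and their count is no separate support.

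**Figure D1:**
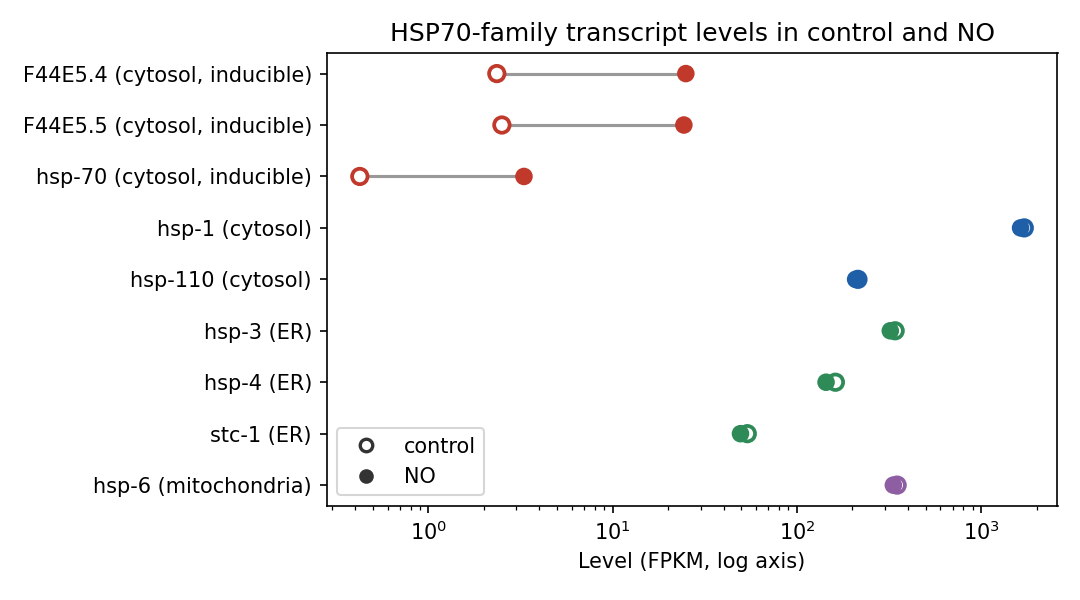
Level of each HSP70-family gene in the authors' deposited table in FPKM on a log axis, with open circles for control and filled circles for NO, 1 combined value per condition and no error bar because single samples were not analysed here. Red marks inducible cytosolic, blue other cytosolic, green ER and purple mitochondrial genes. The circles of F44E5.4, F44E5.5 and hsp-70 are far apart, and those of the other 6 genes nearly coincide.

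F44E5.4 and F44E5.5 are neighbours on opposite strands with their starts facing each other and no gene between them in the Ensembl release 115 models (assembly WBcel235). Each has 2 exons and a coding length of 1935 nt in those models. They are known as near-identical copies, so how fragments were split between them is uncertain, and the pair may be 1 signal counted as 2 calls. The level of F44E5.5 was 106.5% of that of F44E5.4 in control and 97.6% in NO. Counted as 1, the pair left 1 call among 8 members.

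The third inducible cytosolic gene, hsp-70, had a fold of similar size that was not called. Its level was 0.424 FPKM in control and 3.30 FPKM in NO in the deposited table, a 7.78-fold difference. Its deposited log2 fold of 2.96 had an SE of 1.27, an unadjusted p of 0.0194 and an adjusted p of 0.99994. With it, 3 of 9 members were higher at an unadjusted p under 0.05, against 2.75% of all loci. The 95% interval of its fold reached from 1.39 to 43.5 and so covered the values of both F44E5.4 and F44E5.5. At that SE a call would have needed a 26.8-fold rise, against 3.92-fold for F44E5.4. The 1755 loci within a factor of 1.5 of the mean level of hsp-70 had a median implied SE of 0.78, and 20.5% of them had one as large as hsp-70. After adding 1 FPKM to each condition, the log2 ratio of hsp-70 was 1.59.

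In the Ensembl models hsp-70 lies inside intron 7 of another gene, uggt-2, on the opposite strand, and shares 0 exon bases with it. The gene uggt-2 belongs to the UDP-glucose:glycoprotein glucosyltransferase family, whose enzymes mark misfolded glycoproteins in the ER. Under the name F26H9.8, uggt-2 had 1.08 FPKM in control and 2.76 FPKM in NO in the deposited table. The authors' log2 fold for uggt-2 was 1.35 with an SE of 0.61 and an unadjusted p of 0.0262, and it was not called (adjusted p = 0.99994 from the authors). The labels do not say whether fragments were assigned by strand. Without strand, fragments from the unspliced uggt-2 transcript and from hsp-70 cannot be told apart unless they span a junction between hsp-70 exons. The part of uggt-2 in the value of hsp-70 was not tested.

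**Figure D2:**
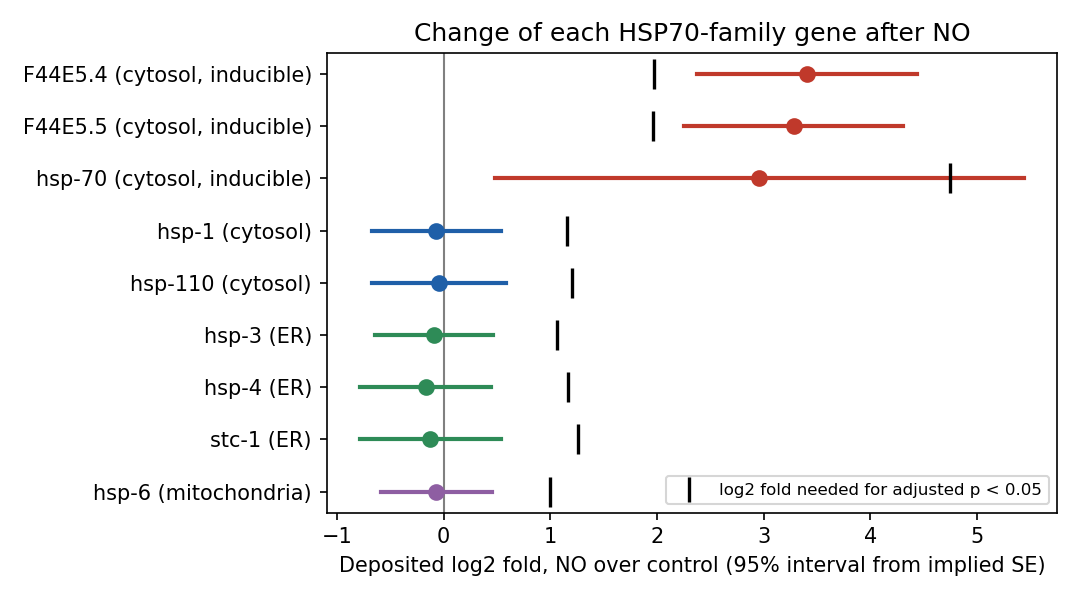
Deposited log2 fold of NO over control for each gene (points) with its 95% interval from the implied SE (lines), and the log2 fold at which that SE would have given an adjusted p of 0.05 (black ticks). F44E5.4 and F44E5.5 lie to the right of their ticks, hsp-70 lies left of its tick with an interval above 0, and the 6 other intervals all include 0.

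Constitutive cytosolic HSP70 was the most abundant of the family and was not called. For hsp-1, the heat shock cognate gene that serves folding in unstressed cells, the deposited level was 1715 FPKM in control against 1637 FPKM in NO. Its deposited log2 fold was -0.07 with an SE of 0.31 and an unadjusted p of 0.829. The 95% interval of its fold, 0.627 to 1.45, leaves out a rise of the size seen for F44E5.4. For hsp-110, a nucleotide exchange factor for HSP70, the deposited level was 215 FPKM in control against 208 FPKM in NO. Its deposited log2 fold was -0.04 with an SE of 0.32 and an unadjusted p of 0.895. The level of hsp-1 was 7.99 times that of hsp-110 in control and 7.86 times in NO.

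The ER members were not called either. BiP, the HSP70 of the ER lumen, is encoded by both hsp-3 and hsp-4 in the worm. For hsp-3 the deposited level was 341 FPKM in control against 321 FPKM in NO, with a log2 fold of -0.09 (SE 0.28) and an unadjusted p of 0.757. For hsp-4, the more responsive of the pair in ER stress, the deposited level was 162 FPKM in control against 144 FPKM in NO, with a log2 fold of -0.17 (SE 0.31) and an unadjusted p of 0.589. The level of hsp-3 was 2.11 times that of hsp-4 in control and 2.23 times in NO. The 95% interval for hsp-4 ended at a 1.36-fold rise. The gene stc-1 is the counterpart of mammalian STCH, a shortened HSP70 found with microsomes. Its deposited level was 53.8 FPKM in control against 49.4 FPKM in NO, with a log2 fold of -0.12 (SE 0.34) and an unadjusted p of 0.715. In the Ensembl models stc-1 shares 51 exon bases with F54C9.14 on the opposite strand, which had 10.2 FPKM in control and 14.4 FPKM in NO in the deposited table.

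The mitochondrial member was not called. Its gene, hsp-6, encodes the matrix HSP70 that takes part in protein import and folding. The deposited level of hsp-6 was 350.03 FPKM in control against 334 FPKM in NO, with a log2 fold of -0.07 (SE 0.27) and an unadjusted p of 0.796. Its interval, from 0.665-fold to 1.37-fold, was the narrowest of the 9 members on the log2 scale.

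The 6 members outside the inducible set differed little among themselves in their change. Their deposited folds ran from 0.890 for hsp-4 to 0.971 for hsp-110, each with an adjusted p of 0.99994. All 6 lay below 0 on the log2 scale as deposited, but 3 of them lay above 0 after both conditions were scaled to the same summed FPKM, and 5 after centring on the median of the loci in the same of 10 abundance bins. Between 73.4% and 85.1% of the loci within a factor of 1.5 of each member's level were below 0 as well, with medians from -0.15 to -0.13 on the log2 scale. Each of the 6 lay inside the interquartile range of the loci at its level. A call for them would have needed a rise of 1.99-fold to 2.40-fold, so smaller changes could not have been called. The highest upper bound among them was a 1.505-fold rise, for hsp-110. The intervals of F44E5.4 and F44E5.5 began at log2 folds of 2.38 and 2.26 and did not overlap any of these 6 intervals, which ended at 0.59 or lower. The interval of hsp-70 began at 0.48 and overlapped some of them. The differences between members were not tested.

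**Figure D3:**
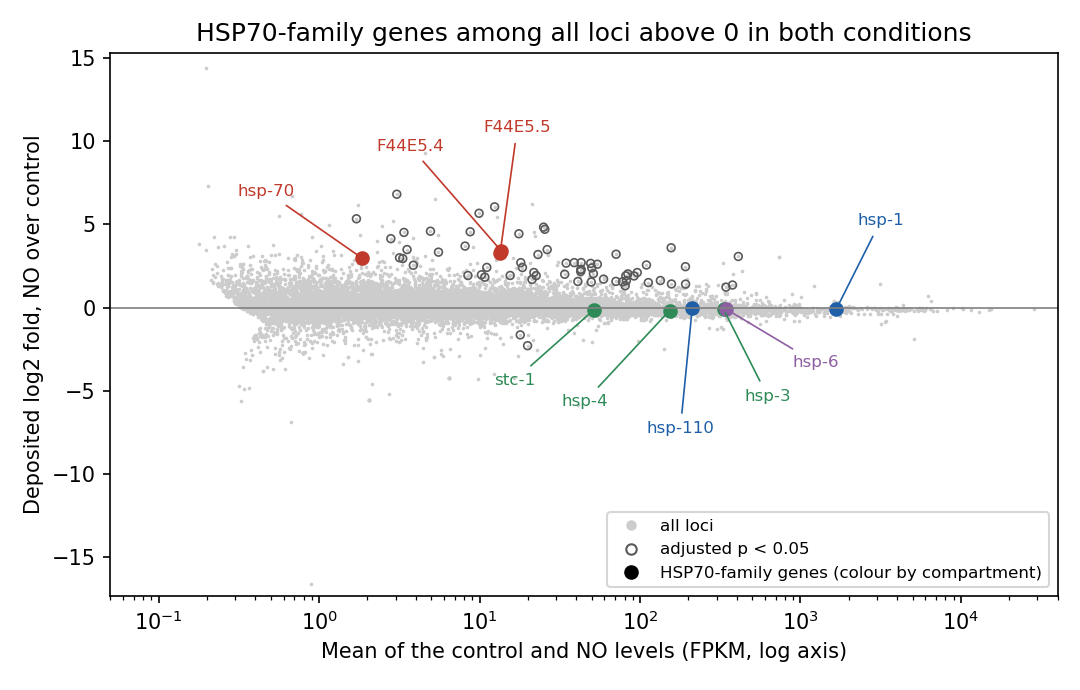
Deposited log2 fold of NO over control against the mean of both levels in FPKM on a log axis for the loci above 0 in both conditions (grey), with called loci ringed and the HSP70-family genes in colour (red inducible cytosolic, blue other cytosolic, green ER, purple mitochondrial). F44E5.4 and F44E5.5 sit above nearly all loci at their mean level, which their NO levels mostly set. The 6 abundant members sit within the dense band just below 0.

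Summed by compartment, the rise of the inducible genes added little to the family's transcripts. The 3 inducible genes together went from 5.28 FPKM in control to 52.6 FPKM in NO, a gain of 47.3 FPKM, summed from the deposited table. F44E5.4 and F44E5.5 supplied 44.4 FPKM of that gain. The inducible share of the family's summed level was 0.186% in control and 1.91% in NO. Alone, hsp-1 stood at 325 times the inducible sum in control and 31.1 times in NO. The cytosolic pair hsp-1 and hsp-110 held 67.9% of the family's sum in control and 67.2% in NO. The ER genes held 19.6% and 18.7%, and hsp-6 held 12.3% and 12.2%. The sum over all 9 members was 2841 FPKM in control and 2746 FPKM in NO. In bulk RNA of whole worms, a change in a few cells and a smaller change in all cells cannot be told apart.

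In control the order of deposited levels was hsp-1, hsp-6, hsp-3, hsp-110, hsp-4, stc-1, F44E5.5, F44E5.4 and hsp-70, and in NO it was the same except that F44E5.4 stood above F44E5.5. The level of hsp-3 was 97.5% of that of hsp-6 in control and 96.3% in NO. Whether neighbours in this order differ beyond the spread of samples could not be assessed. Across the family, hsp-1 stood at 4046 times the level of hsp-70 in control and 496 times in NO.

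The inducible members had the fewest exons in the Ensembl models. The gene hsp-70 has 3 exons beside the 2 of F44E5.4 and F44E5.5, while the other 6 members have 4 to 8. Coding lengths ran from 1350 nt for stc-1 to 2328 nt for hsp-110, and the 7 others lay between 1920 and 1983 nt.

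By its levels in both conditions, the locus most like F44E5.4 was F44E5.5, at a distance of 0.07 on the log2(FPKM + 1) scale over the 2 conditions. Next came cTel7X.2, with deposited levels of 3.04 and 22.1 FPKM at a distance of 0.32, and then the metallothionein gene mtl-1, with 3.61 and 28.6 FPKM at 0.50. The implied SEs of their log2 folds differed widely, at 3.81 for cTel7X.2 and 0.80 for mtl-1. Neither was called by the authors (adjusted p = 0.99994 and 0.05001). For F44E5.5 the nearest loci were F44E5.4 and the same 2 others. The loci most like hsp-70 were dct-3, numr-2 and T24A6.7, at distances of 0.03, 0.07 and 0.09. The deposited levels were 0.405 and 3.23 FPKM for dct-3, 0.409 and 3.51 FPKM for numr-2 and 0.426 and 3.57 FPKM for T24A6.7. Their implied SEs were 0.89, 0.88 and 0.95, against 1.27 for hsp-70, and the authors' adjusted p were 0.122, 0.0861 and 0.180.

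Genes on either side of the members were not called where they had a row, but 3 were higher at an unadjusted p under 0.05. Within 2 protein-coding genes on each side in the RefSeq order, 22 loci that are not members had a row, none of them beside F44E5.4 or F44E5.5. Of these, 0 were called in the deposited test, against 0.399% of all loci, a share at which 22 loci would seldom hold a call. By unadjusted p 3 of the 22 were under 0.05, all of them higher, against 2.75% of all loci. The first was uggt-2, the gene whose intron holds hsp-70. C45B2.8, next to hsp-3, had deposited levels of 5.39 and 28.5 FPKM, and the authors gave it an unadjusted p of 0.00196 (adjusted p = 0.240). The cuticle collagen gene col-38, near stc-1, had 44.3 and 115 FPKM, and the authors gave it an unadjusted p of 0.000349 (adjusted p = 0.0731).

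Genes that work with HSP70 were not called in any compartment. Over the lists of cytosolic partners, heat shock regulators, ER partners and mitochondrial partners, 43 genes had a row. For 11 of these the row joined several genes, so its values are not those of the listed gene alone, among them dnj-13, sel-1, atf-6 and lonp-1. Without the joined rows, 0 of 32 genes were called and 0 had an unadjusted p below 0.05, with 29 log2 ratios below 0 and 3 above. Of the 43, 0 were called in the authors' deposited test, against 0.399% of all loci. At that share, 0 calls among 43 genes say little about the partners. By unadjusted p in that test 0 of the 43 were below 0.05, against 3.09% of all loci in either direction. In these 4 lists 39 genes had a log2 ratio below 0 as deposited, against 35 after scaling to the same summed FPKM and 30 after centring on abundance bins. Among the 14285 loci averaging at least 1 FPKM, 53.7% were below 0, with a median log2 ratio of -0.03. Above 100 FPKM 76.8% were below 0, with a median deposited log2 fold of -0.14.

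The 11 cytosolic partners had a median log2 ratio of -0.15 after adding 1 FPKM, with 1 above 0. The HSP90 gene daf-21 shared a locus with C47E8.11, at deposited levels of 1644 and 1502 FPKM and an SE of 1.72. The gene daf-41, for the p23 co-chaperone of HSP90, shared a locus with ztf-8, at deposited levels of 784 and 666 FPKM. The lowest ratio was that of chn-1, the CHIP ubiquitin ligase that acts on chaperone clients, at deposited levels of 79.3 and 66.3 FPKM. The highest was that of unc-23, a BAG-domain co-chaperone, at deposited levels of 27.1 and 33.6 FPKM with an unadjusted p of 0.468.

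The 4 regulators were hsf-1, its inhibitor hsb-1, ddl-1 and ddl-2, with a median log2 ratio of -0.17. The deposited levels of hsf-1 were 44.3 and 39.7 FPKM. Joined with eak-7, the locus of hsb-1 had deposited levels of 213 and 177 FPKM, the lowest ratio of the 4. Joined with F59E12.11, the locus of ddl-1 had 115 and 101 FPKM in the deposited table. The highest ratio was that of ddl-2, at deposited levels of 8.06 and 7.30 FPKM. Transcript levels do not show the activity of HSF-1, which is regulated as a protein.

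Of the 6 small heat shock protein genes of the hsp-16 class, which HSF-1 also drives, 4 were called as higher, against 0.386% of all loci. Among these 4, hsp-16.48 and hsp-16.49 have identical values and may be 1 signal counted as 2 calls. The deposited levels of hsp-16.1, 11.4 and 74.5 FPKM, were also close to those of hsp-16.11. How many separate signals the 4 calls hold was not tested. The log2 ratios of all 6 genes were above 0. Their median log2 ratio was 2.22. The most abundant, hsp-16.11, had deposited levels of 13.4 and 85.0 FPKM. The deposited log2 folds of the called genes were 2.71 for hsp-16.1 (SE 0.59), 2.66 for hsp-16.11 (SE 0.55) and 2.29 for both hsp-16.48 and hsp-16.49 (SE 0.57), which share their values. F44E5.4 and F44E5.5, at 3.41 and 3.28, stood above them, and the differences were not tested. The fold intervals of F44E5.4 and F44E5.5 began at 5.20 and 4.78. Those of hsp-16.48 and hsp-16.49 ended at 10.7, so the intervals overlapped. The other two were not called, with deposited log2 folds of 2.38 for hsp-16.2 (SE 0.98) and 2.28 for hsp-16.41 (SE 0.82). After adding 1 FPKM the lowest log2 ratio was that of hsp-16.2, at 1.94, and as deposited the lowest log2 fold was that of hsp-16.41.

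The 17 ER partners and ER stress genes with a row had a median log2 ratio of -0.12, with 2 above 0. The calreticulin gene crt-1, for a calcium-binding chaperone, had deposited levels of 870 and 890.2 FPKM, and its log2 fold of 0.03 (SE 0.31) was the highest of the list. The protein disulfide isomerase gene pdi-1 shared a locus with cyn-9, at deposited levels of 383 and 346 FPKM. The lowest ratio was that of ckb-2, a choline kinase gene, at deposited levels of 29.0 and 19.7 FPKM, with a log2 fold of -0.56 (SE 0.41) and an unadjusted p of 0.170. Upstream of hsp-4 acts the transcription factor gene xbp-1, whose locus, joined with dnj-16, had deposited levels of 220.5 and 220.8 FPKM. T14G8.3 and T24H7.2 are related to HYOU1, the large HSP70 of the mammalian ER. Their deposited levels were 36.97 and 32.6 FPKM for T14G8.3 and 82.2 and 76.8 FPKM for T24H7.2. The disulfide isomerase genes pdi-3 and pdi-6 were not analysed here.

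The 11 mitochondrial partners with a row had a median log2 ratio of -0.18, with 1 above 0. Y22D7AL.10, the co-chaperonin HSP10, had deposited levels of 508 and 411 FPKM and the lowest ratio, with a log2 fold of -0.30 (SE 0.34) and an unadjusted p of 0.377. The protease gene clpp-1 shared a locus with vha-9, at deposited levels of 570 and 503 FPKM. The highest ratio was that of dve-1, a homeodomain factor of the mitochondrial stress response, at deposited levels of 9.13 and 12.3 FPKM, with a log2 fold of 0.42 (SE 0.51) and an unadjusted p of 0.405. The chaperonin gene hsp-60 was not analysed here.

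**Figure D4:**
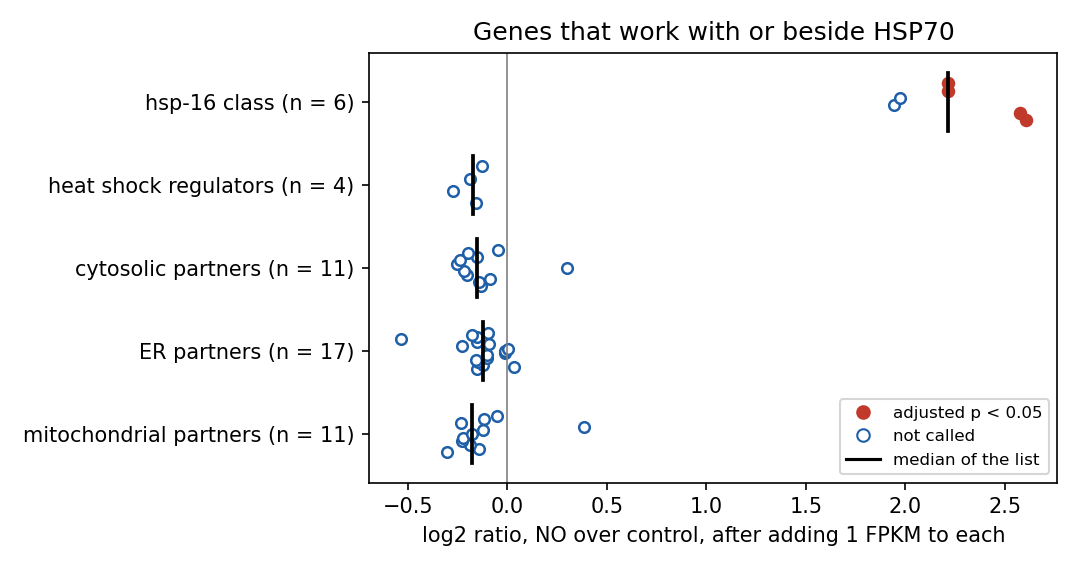
Log2 ratio of NO over control after adding 1 FPKM for genes of 5 lists (points, 1 per gene), with filled red points for an adjusted p under 0.05 in the deposited test and black bars for list medians. The 6 hsp-16 genes lie at 1.94 or higher, and the 43 partner and regulator genes lie between -0.54 and 0.39.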

How the data were processed

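RNA of 4 whole-worm samples had been sequenced from libraries of the Illumina TruSeq RNA kit, per the labels' protocols. The submitters' processing notes name TopHat2 (2.0.2), Cufflinks (2.0.5) and R (2.15.2), while settings, build and annotation were not given in the sources used here. The authors deposited 1 table with a control and an NO value per locus, per the file headers, taken as FPKM from its layout. Its fold is the ratio of the deposited NO value to the control value. The test statistic, a deposited score, has the sign opposite to the fold in all 15621 loci with both values above 0. Each deposited p-value is the two-sided normal tail of that score, and the adjusted p a Benjamini-Hochberg adjustment over 16562 loci.

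Python 3.11.15 with pandas 2.3.3 was used. An SE was obtained by dividing the deposited log2 fold by its test statistic, and 95% intervals are 1.96 SE each way. They treat that SE as known. No count model could be run on combined values. Ratios after adding 1 FPKM understate changes at low levels. The adjustment of p-values and the calling were tested on simulated data drawn with the implied SEs. That cannot show whether those SEs cover the spread between samples. Members, lists and alternatives were chosen with earlier results of these data known. Named genes were all members, and per list the called genes, the 2 most abundant and the highest and lowest ratios, with the 3 loci nearest in level to each inducible member. The genes hsf-1, hsp-16.41, xbp-1, T14G8.3, T24H7.2, other joined partners, F54C9.14, the flanking genes and the stage markers were named besides. Gene names, neighbours and exon models came from RefSeq and Ensembl tables of WBcel235, and no coordinates are printed because the authors' build is not known. Alternatives were other thresholds, filters, pseudocounts and scalings.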

Additional observations from a re-analysis of the deposited data

How the results depend on the processing

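Of 101 values recomputed under alternatives, 98 stayed within 1.5 times (counts) or 1 implied SE (ratios) of the reported value. Many of them could not have left that range. Scaling to the same summed FPKM or to the overall median shifts log2 ratios by 0.08 or 0.03, below the smallest implied SE of 0.25. Counts of 0 could not fall at a stricter threshold. Every listed gene already passed the filter of 1 FPKM that was lifted. Changes of sign were counted for called values only, and 0 of those changed. The count of 2 called members was 2 at adjusted p thresholds of 0.01 and 0.1 and after re-adjustment over loci of at least 1 or 10 FPKM, and 3 at an unadjusted p under 0.05. It was 1 with F44E5.4 and F44E5.5 counted once. Both of these genes pass the filter of 10 FPKM only through their NO levels. The log2 ratio of hsp-70 was 2.96 with no pseudocount, against 1.59 after adding 1 FPKM, by construction of a ratio at low level. Called hsp-16 genes were 2 at an adjusted p of 0.01. Centring on the median of 10 abundance bins left 1 of the 6 members outside the inducible cytosolic set below 0. Scaling to the same summed FPKM, chosen for single members and partner lists after seeing the data, left 3 of them below 0. That scaling moved the summed log2 ratio of the constitutive cytosolic genes from -0.06 to 0.01 and that of hsp-6 from -0.07 to 0.0096. No paired analysis was possible because the table used here holds 1 combined value per condition, and for the same reason leaving out single samples was not run. Depth is unknown. Leaving out joined rows from the partner lists, also chosen after seeing the data, left 0 calls.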
